A study of Mus musculus with 50 samples.

Results

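The genes described here are 10 immediate early and stress genes of the mouse, taken by symbol from the 24391 genes of the RNA-seq count tables: Egr1, Fos, Fosb, Jun, Junb, Ier2, Atf3, Ddit3, Hspa1a and Hspa1b. They were followed through 8 RNA-seq libraries of a study of Xist, the long non-coding RNA that coats the inactive X chromosome, in which Repeat B, a tandem repeat of Xist, was deleted. The groups were differentiated embryonic stem (ES) cells heterozygous for the deletion (RepB+/-), ES cells homozygous for it (RepB-/-) and wild-type ES cells (WT), with 2 libraries each, and mouse embryonic fibroblasts (MEF) that had lost Repeat B (RepB) beside wild-type MEF, with 1 library each. The strain background of all 8 was CAST/Ei x 129/Sv/Jae. Differentiation of the ES cells took 4 days in suspension and 10 days on gelatin-coated plates, in medium with serum, and the MEF were also kept with serum. The labels do not say whether the MEF had lost the repeat on 1 or both alleles, whether a genotype was 1 clone, or whether the libraries of a genotype were separate cultures, so p-values measure only the spread between these libraries, which may be technical.

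Immediate early genes are switched on within minutes of a stimulus such as serum, stretch or injury, without new protein synthesis, through serum response factor and the MAP kinase cascade. Their best known products, the Fos and Jun proteins, pair to form the AP-1 transcription factor, and Egr1 encodes a zinc finger transcription factor. Stress genes answer to damaged or unfolded protein: Ddit3 (the transcription factor CHOP) and Atf3 are switched on by ATF4 in the integrated stress response, and Hspa1a and Hspa1b, a pair of near-identical genes for the inducible chaperone HSP70, by heat shock factor.

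RefSeq promoter sequences, 250 bases before to 50 bases after the annotated start (GRCm38.p6, written along the gene's strand), were found for 8 of the 10 genes, that is for all but Egr1 and Ier2. The promoters of the 5 genes that fell in RepB+/- ES cells are shown, so that the genes that moved together can be compared. For Jun, Atf3 and Ddit3 the capitals mark matches to 5 motifs. These were the TATA box TATAAA on the gene's strand and, on both strands, the CRE-like motif TGACNTCA, the AP-1 motif TGANTCA, the C/EBP-ATF composite motif TTGCATCA and GAANNTTC, a pair of heat shock element units.
Jun, chr4:95052173-95052472, minus strand: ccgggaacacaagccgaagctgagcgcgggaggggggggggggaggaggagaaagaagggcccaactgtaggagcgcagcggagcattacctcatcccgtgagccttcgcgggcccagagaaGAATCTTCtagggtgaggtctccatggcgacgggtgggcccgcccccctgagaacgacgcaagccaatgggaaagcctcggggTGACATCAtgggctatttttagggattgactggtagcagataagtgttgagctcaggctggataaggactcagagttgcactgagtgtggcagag
Atf3, chr1:191183284-191183583, minus strand: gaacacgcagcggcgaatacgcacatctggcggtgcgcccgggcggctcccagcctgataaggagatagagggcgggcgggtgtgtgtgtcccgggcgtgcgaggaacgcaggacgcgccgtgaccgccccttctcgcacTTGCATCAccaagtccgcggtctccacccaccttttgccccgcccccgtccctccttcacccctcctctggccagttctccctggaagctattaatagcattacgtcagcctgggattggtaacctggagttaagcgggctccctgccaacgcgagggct
Ddit3, chr10:127290543-127290842, plus strand: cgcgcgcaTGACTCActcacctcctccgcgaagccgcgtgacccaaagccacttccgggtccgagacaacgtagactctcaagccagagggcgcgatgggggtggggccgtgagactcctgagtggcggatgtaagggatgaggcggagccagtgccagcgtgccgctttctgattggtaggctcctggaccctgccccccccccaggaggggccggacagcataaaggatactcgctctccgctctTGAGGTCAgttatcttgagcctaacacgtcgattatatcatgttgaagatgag
Jun held TGACATCA 45 bases before its start and GAATCTTC 128 bases before it, Atf3 held TTGCATCA 110 bases before its start, and Ddit3 held TGACTCA 242 bases before its start and TGAGGTCA 3 bases before it. Among all 32851 promoters of the table, 8.83% held the CRE-like motif, 7.81% the AP-1 motif, 0.895% the C/EBP-ATF motif, 7.86% the heat shock pair and 8.32% the TATA box. As the exact string TGACNTCA, the CRE-like motif was thus found in Jun and Ddit3 but not in Atf3. None of the 5 capitalised motifs was found in all 3 promoters, and near matches were not sought. The CCAAT box (CCAAT on both strands, not capitalised) was found in all 3, at 65 bases before the start of Jun, 77 before that of Ddit3 and 5 after that of Atf3, and in 37.4% of all promoters.

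The promoters of Hspa1b and Hspa1a are shown with capitals at the bases in which they differ.
Hspa1b, chr17:34959189-34959488, minus strand: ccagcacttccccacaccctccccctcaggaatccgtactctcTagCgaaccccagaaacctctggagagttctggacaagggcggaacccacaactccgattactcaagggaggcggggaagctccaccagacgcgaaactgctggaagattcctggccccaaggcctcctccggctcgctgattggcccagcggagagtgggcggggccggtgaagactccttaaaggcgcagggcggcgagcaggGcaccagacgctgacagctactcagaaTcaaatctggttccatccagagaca
Hspa1a, chr17:34972107-34972406, minus strand: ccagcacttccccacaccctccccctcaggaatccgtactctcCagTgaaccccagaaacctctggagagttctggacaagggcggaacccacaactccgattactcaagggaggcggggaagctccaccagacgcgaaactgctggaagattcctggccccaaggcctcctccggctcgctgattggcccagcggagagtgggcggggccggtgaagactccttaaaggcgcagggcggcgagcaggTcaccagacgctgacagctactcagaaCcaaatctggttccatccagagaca
They were identical at 296 of 300 bases (98.7%), and differed by T44C, C47T, G249T and T276C, with the Hspa1b base first, the position counted from 1 at the 5′ end, and the Hspa1a base last. Both held GAAGATTC 104 bases and a CCAAT box 67 bases before the start, so the CCAAT box was found in all 5 promoters shown. Of the other 3 promoters found, that of Fos held TATAAA 33 bases before the start and that of Junb held it at the annotated start itself, position 0. That of Fosb held GCGNGGGCG, the Egr motif, as did 5.55% of all promoters. The CCAAT box was not particular to the genes that fell. Junb, which was not among them, also held it, 36 bases before the start, while Fos and Fosb did not. The counts of Hspa1a and Hspa1b are uncertain as values of the single genes, since short reads of near-identical copies can be split or dropped, and their sum is given beside them.

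Total counts per library ran from 8000722 in RepB+/- ES replicate 2 to 28045645 in RepB-/- ES replicate 1. The ES cultures were mixed, as their markers showed. All 7 pluripotent cell markers rose in RepB+/- and in RepB-/- cells against WT, with summed levels of 429 to 597 CPM (counts scaled to library size by the TMM method) in RepB+/-, 372 to 446 CPM in RepB-/- and 150 to 177 CPM in WT. Heart muscle markers summed to 249 to 262, 197 to 207 and 498 to 548 CPM in the same order of genotypes, and 6 of 7 fell in RepB+/- and 5 of 7 in RepB-/-. Of the endoderm markers 5 of 6 rose in RepB+/- and 1 in RepB-/-, and of the macrophage markers 4 and 5 of 6 rose. Endothelial markers split, with 2 of 6 higher and 1 lower in RepB+/- and 2 lower in RepB-/-, and of 8 fibroblast markers 3 rose and 1 fell in each. Of all tested genes 9.12% rose and 6.84% fell in RepB+/-, and 7.27% rose and 5.49% fell in RepB-/-. The fibroblast markers differed most within RepB+/-, summing to 17035 CPM in replicate 1 and 32070 CPM in replicate 2. They summed to 19952 and 23271 CPM in RepB-/- and to 21088 and 26415 CPM in WT. The part of these shifts in the results below was not tested, and in such bulk samples fewer cells of a type and less RNA per cell cannot be told apart.

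**Figure D1:**
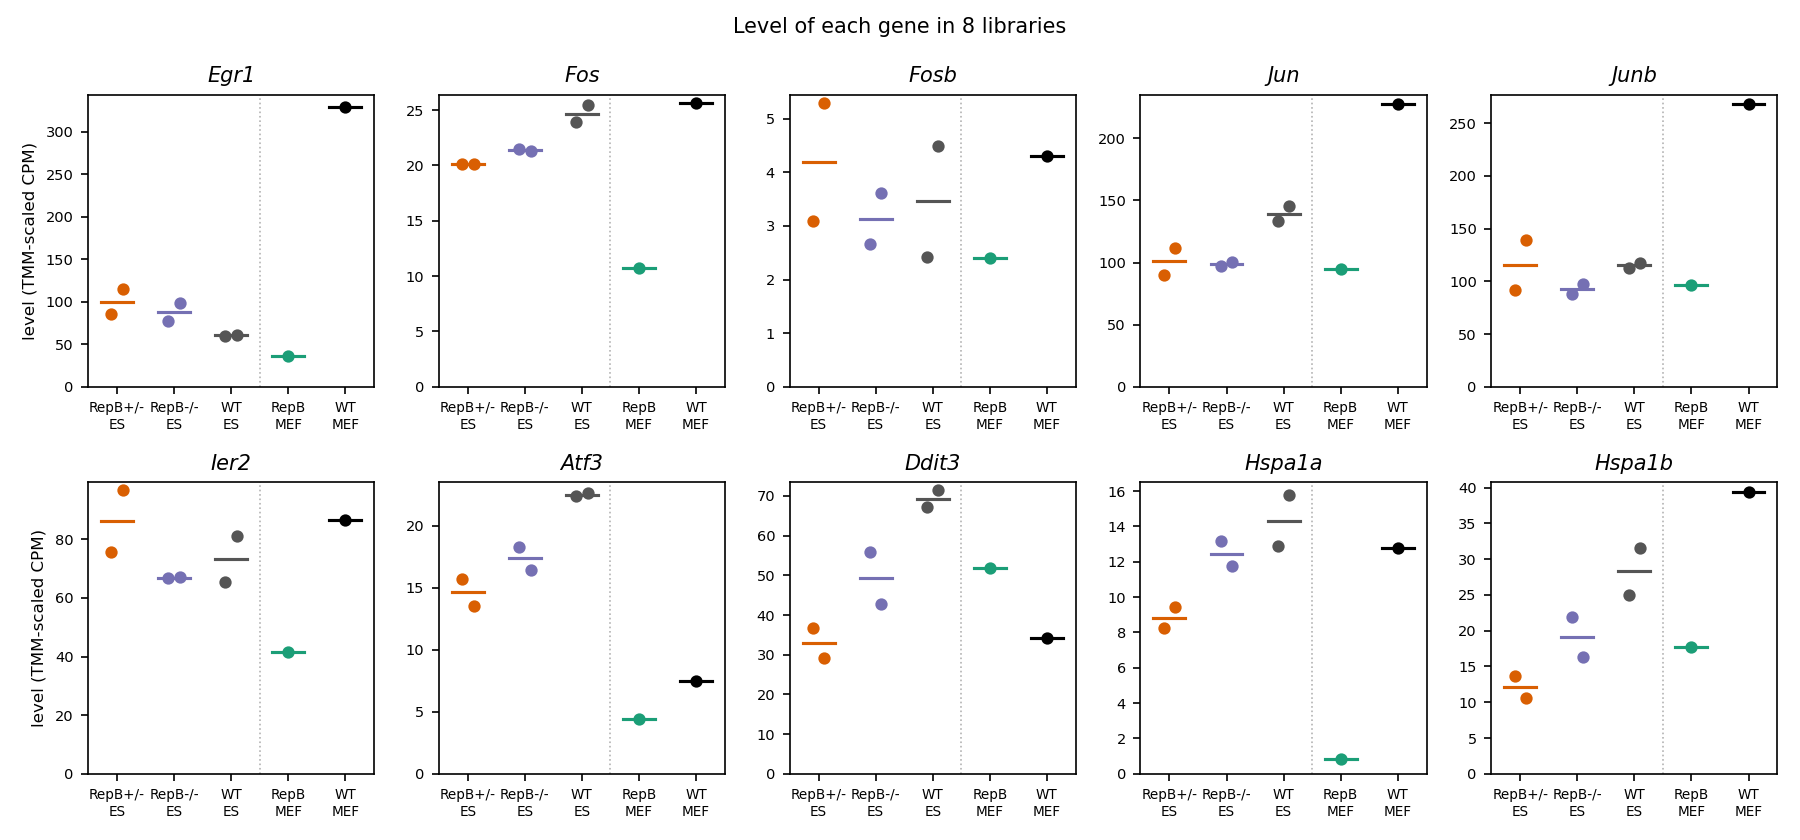
Level of each of the 10 genes (y axis, TMM-scaled CPM from 0, own scale per gene) in the 8 libraries (points), by group (x axis: RepB+/-, RepB-/- and WT ES cells, then RepB and WT MEF); lines are group means. Egr1 reaches 329 CPM in WT MEF and 36.3 CPM in RepB MEF, and among the ES genotypes Ddit3 is lowest in RepB+/- cells. ES and MEF libraries were scaled separately.

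Compared per length, as RPKM (CPM per kilobase of exon, by total counts), the 10 genes ranged from abundant to barely detected, and their order changed with cell type and genotype. In WT ES cells Ddit3 was highest at 76.7 ± 0.898 RPKM (SD, n = 2 here and for every ES value), followed by Junb at 60.3 ± 0.185, Ier2 at 46.3 ± 5.58, Jun at 42.1 ± 1.35 and Egr1 at 19.1 ± 0.301. Ier2 and Jun overlapped there. Fos (11.4), Atf3 (11.0), Hspa1b (9.68), Hspa1a (4.93) and Fosb (0.877) followed. In RepB+/- cells Junb led at 63.2 ± 14.4 RPKM, Ier2 had 57.2 ± 6.16 and overlapped it, and Ddit3 followed at 38.5 ± 8.81, overlapping Egr1 at 32.9 ± 4.68, which in turn overlapped Jun. In RepB-/- cells Ddit3 had 57.9 ± 11.6 RPKM, overlapping Junb at 51.4 ± 3.08.

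The MEF libraries gave another order. RepB MEF had Ddit3 first at 62.4 RPKM, then Junb at 55.0, Jun at 31.1, Ier2 at 28.6 and Egr1 at 12.4. WT MEF had Junb at 139 RPKM, Egr1 at 102, Jun at 68.4, Ier2 at 54.3 and Ddit3 at 37.5. The Egr1 level of RepB MEF lay below that of every ES library (18.9 to 36.2 RPKM), and that of WT MEF lay above every one.

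Against WT, RepB+/- ES cells had more Egr1 and less of the stress genes and of Jun, while Fos, Fosb, Junb and Ier2 were not called. Of the 10 genes 1 rose and 5 fell at an adjusted p of 0.05 (edgeR quasi-likelihood test, Benjamini-Hochberg over 15149 genes), where 9.12% of all tested genes rose and 6.84% fell. The 5 that fell included all 4 stress genes and Jun. The libraries of the 2 genotypes did not overlap for 7 of the 10 genes, where 58.5% of all genes showed no overlap. The median log2 fold change of the 10 genes was -0.38, and that of all genes was 0.02.

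Egr1 had 85.4 and 115 CPM in RepB+/- cells, against 60.3 and 61.6 CPM in WT cells. Both RepB+/- libraries lay above both WT libraries, which were close to each other. The difference was 1.63-fold (log2 0.70, SE 0.14, edgeR adjusted p = 0.00429). In the counts' own coordinates (mm9) the listed exon of Egr1 lies on chromosome 18 from 35020861 to 35021440 on the plus strand.

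Among the AP-1 genes, Jun had 90.0 and 112 CPM in RepB+/- cells, against 133 and 145 CPM in WT cells, with no overlap. It fell by 0.47 on the log2 scale (SE 0.12, edgeR adjusted p = 0.0131). Junb, which can take the place of Jun in AP-1, had 91.8 and 140 CPM in RepB+/- cells, against 113 and 117 CPM in WT cells. Its 2 RepB+/- libraries thus lay on either side of both WT libraries, and differed by 0.60 (log2), where the median gene differed by 0.19 between them. Fos had 20.2 CPM in both RepB+/- libraries, against 23.9 and 25.4 CPM in WT cells, a difference of -0.29 (SE 0.13, edgeR adjusted p = 0.149) that was not called although the groups did not overlap. Fosb was the least abundant gene, with 88 and 41 reads in the RepB+/- libraries, against 47 and 53 in WT, and had a log2 difference of 0.22 with an SE of 0.35. Ier2, an immediate early gene for a nuclear protein, had 75.6 and 96.8 CPM in RepB+/- cells, against 65.4 and 81.1 CPM in WT cells, which overlapped (log2 0.23, SE 0.13, edgeR adjusted p = 0.256).

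All 4 stress genes fell. Ddit3 had 36.7 and 29.1 CPM in RepB+/- cells, against 67.2 and 71.4 CPM in WT cells. Both RepB+/- libraries lay far below both WT libraries, and Ddit3 was 2.07-fold lower (log2 -1.05, SE 0.14, edgeR adjusted p = 0.000200). In the RefSeq annotation of GRCm38.p6 it overlaps Mbd6 and Mars1. The strand setting of the counting is not given in the sources used here, so reads shared with them cannot be told apart. Atf3 had 15.7 and 13.6 CPM in RepB+/- cells, against 22.4 and 22.6 CPM in WT cells, and was 1.51-fold lower (log2 -0.60, SE 0.15, edgeR adjusted p = 0.0127).

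Of the HSP70 genes, Hspa1b had 13.7 and 10.6 CPM in RepB+/- cells, against 25.0 and 31.6 CPM in WT cells, and was 2.26-fold lower (log2 -1.17, SE 0.18, edgeR adjusted p = 0.000623). Hspa1a had 8.25 and 9.44 CPM in RepB+/- cells, against 12.9 and 15.8 CPM in WT cells, and was 1.64-fold lower (log2 -0.71, SE 0.18, edgeR adjusted p = 0.0147). No RepB+/- library overlapped a WT library for either gene. Counted as 1 feature, the pair fell by 1.01 on the log2 scale (SE 0.15, edgeR adjusted p = 0.000403).

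The calls of Egr1, Ddit3 and Hspa1b held in every alternative tried, with adjusted p up to 0.0416, 0.00283 and 0.0102. The other calls were lost without single libraries: Jun and Hspa1a without WT replicate 2 or RepB+/- replicate 1 (adjusted p 0.000868 to 0.136 and 0.000403 to 0.140 over all alternatives), and Atf3 without either WT library (0.00266 to 0.0765), so that the 5 that fell became 2 without WT replicate 2 and 3 without RepB+/- replicate 1.

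RepB-/- ES cells were compared with the same 2 WT libraries, so the comparisons are not independent. Here Egr1 rose and Jun, Ddit3 and Hspa1b fell, while Atf3 and Hspa1a were not called. That is 1 gene that rose and 3 that fell, where 7.27% of all genes rose and 5.49% fell. The libraries did not overlap for 7 of the 10 genes, as for 59.4% of all genes. The median log2 fold change was -0.26 for the 10 genes and 0.01 for all genes.

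Egr1 had 77.5 and 99.1 CPM in RepB-/- cells, against 60.3 and 61.6 CPM in WT cells, and was 1.45-fold higher (log2 0.53, SE 0.14, edgeR adjusted p = 0.0213). Jun had 97.6 and 100.2 CPM in RepB-/- cells, against 133 and 145 CPM in WT cells, and was 1.41-fold lower (log2 -0.49, SE 0.12, edgeR adjusted p = 0.0103). The 2 RepB-/- libraries were close to each other for Jun and spread for Egr1, and neither gene overlapped WT. Junb had 87.7 and 97.5 CPM in RepB-/- cells, against 113 and 117 CPM in WT cells. It lay below WT in both libraries but was not called (log2 -0.31, SE 0.15, edgeR adjusted p = 0.182). Fos (21.5 and 21.3 CPM) also lay below both WT libraries without a call (log2 -0.20, adjusted p = 0.331, edgeR). Ier2 with 66.6 and 67.0 CPM and Fosb with 2.66 and 3.61 CPM overlapped WT.

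Of the stress genes in RepB-/- cells, Ddit3 had 55.8 and 42.9 CPM, against 67.2 and 71.4 CPM in WT cells, and was 1.40-fold lower (log2 -0.49, SE 0.14, edgeR adjusted p = 0.0268). Hspa1b had 22.0 and 16.3 CPM in RepB-/- cells, against 25.0 and 31.6 CPM in WT cells, and was 1.46-fold lower (log2 -0.55, SE 0.17, edgeR adjusted p = 0.0460). Atf3 had 18.3 and 16.5 CPM in RepB-/- cells, against 22.4 and 22.6 CPM in WT cells. It was lower in both RepB-/- libraries but not called (log2 -0.37, SE 0.14, edgeR adjusted p = 0.0975). Hspa1a had 13.1 and 11.7 CPM in RepB-/- cells, against 12.9 and 15.8 CPM in WT cells, and overlapped (log2 -0.19, SE 0.17, edgeR adjusted p = 0.492). Without WT replicate 2, or without RepB-/- replicate 2, none of the 10 genes was called. Junb was called with only these 2 genotypes in the fit, with the replicate block, or without either RepB+/- library (adjusted p 0.0374 to 0.525 over all alternatives), and Atf3 with the block (0.0481 to 0.370). Over all alternatives the adjusted p of the 4 calls ran up to 0.224 for Egr1, 0.135 for Jun, 0.255 for Ddit3 and 0.391 for Hspa1b, and the summed HSP70 pair was not called (log2 -0.42, SE 0.14, edgeR adjusted p = 0.0588).

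**Figure D2:**
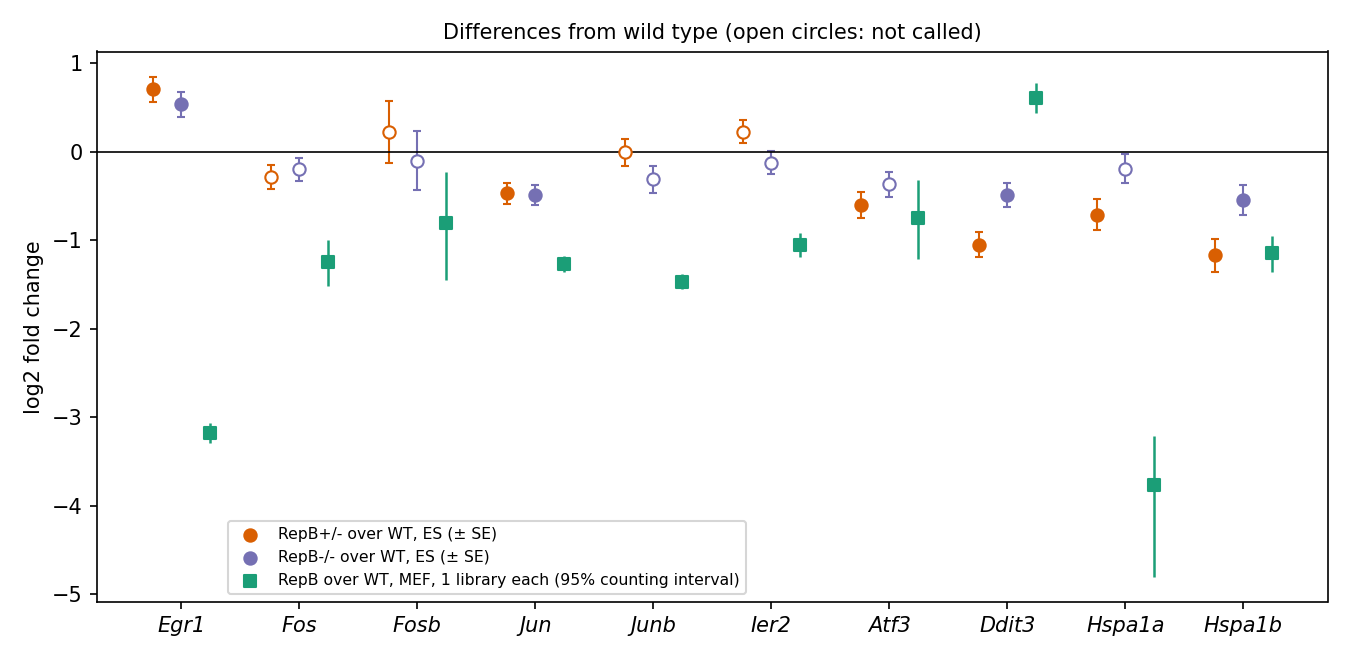
Log2 fold change (y axis) of each gene (x axis) for RepB+/- over WT ES cells and RepB-/- over WT ES cells (circles, ± SE of the edgeR fit, 2 libraries a genotype; open where not called) and for RepB over WT MEF (squares, 1 library each, 95% counting interval only). Egr1 lies above 0 in both ES comparisons (0.70 and 0.53) and at -3.17 in MEF.

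Between RepB-/- and RepB+/- cells, none of the 10 genes was called by edgeR or DESeq2, and 4 had an unadjusted edgeR p under 0.05, namely Ier2, Ddit3, Hspa1a and Hspa1b. Few genes differed between these genotypes at all: 0.0198% of tested genes rose and 0.066% fell. The libraries did not overlap for 6 of the 10 genes, where 33.6% of all genes showed no overlap. Ddit3 had 55.8 and 42.9 CPM in RepB-/- cells, against 36.7 and 29.1 CPM in RepB+/- cells (log2 0.56, SE 0.14, edgeR adjusted p = 0.234). Hspa1b had 22.0 and 16.3 CPM in RepB-/- cells, against 13.7 and 10.6 CPM in RepB+/- cells (log2 0.62, SE 0.18, edgeR adjusted p = 0.364). For both genes the RepB-/- libraries lay above the RepB+/- ones and below the WT ones. Hspa1a differed by 0.52 (SE 0.18) and Ier2 by -0.35 (SE 0.13), with edgeR adjusted p of 0.469 and 0.566. Without a filter on low counts Ddit3 and Hspa1b were called (edgeR adjusted p = 0.00212 and 0.0148), without RepB+/- replicate 1 Ddit3 and Junb were (0.0417 each), and with the replicate block Ddit3 was (0.0188). Over the other alternatives none of the 3 was called, and the adjusted p of each ran up to 1.00.

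Of a list of 23 other immediate early genes, 1 rose and 6 fell in RepB+/- cells, where 9.12% and 6.84% of all genes did. Klf2, a zinc finger transcription factor, rose (log2 1.06, SE 0.12, edgeR adjusted p = 5.32e-05), while Dusp1, a phosphatase that switches off MAP kinases, fell by 0.56 on the log2 scale and Ier3 fell by 0.45. In RepB-/- cells 1 rose and 3 fell, where 7.27% and 5.49% of all genes did, with Klf2 again higher (log2 0.65, SE 0.12, edgeR adjusted p = 0.00201). Myc, the growth transcription factor, fell by 0.58 there, and Zfp36, which speeds the decay of AU-rich mRNAs, fell by 0.52. The list's median log2 fold change was -0.12 in RepB+/- and -0.01 in RepB-/- cells.

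Of 18 genes for serum response and MAP kinase input 5 rose and 1 fell in RepB+/- cells, where 9.12% and 6.84% of all genes did. In RepB-/- cells 4 rose, where 7.27% of all genes rose and 5.49% fell. None fell there by edgeR or DESeq2, and 0 genes were lower at an unadjusted edgeR p under 0.05. Dusp6, an ERK phosphatase, rose by 0.61 on the log2 scale in RepB+/- and by 0.42 in RepB-/- cells. Dusp4, of the same family, rose by 0.55 in each, and Spry4, an inhibitor of receptor tyrosine kinase signalling, by 0.61 and 0.59. The list's medians were 0.01 and -0.02.

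Of 23 genes of the integrated stress and unfolded protein response, 1 rose and 1 fell in RepB+/- cells, and 1 rose in RepB-/- cells. These shares are near those of all genes, 9.12% and 6.84% in RepB+/- cells and 7.27% that rose in RepB-/- cells. Targets of ATF4 were not tested as a set. The gene that rose in both comparisons was Asns, the asparagine synthetase, which like Ddit3 is a target of ATF4. Its log2 fold change was 0.97 (SE 0.12, edgeR adjusted p = 0.000130) in RepB+/- cells and 0.67 (SE 0.12, edgeR adjusted p = 0.00198) in RepB-/- cells, opposite in sign to that of Ddit3. Atf3, also switched on by ATF4, had the sign of Ddit3 in both (log2 -0.60 and -0.37), and was called in RepB+/- cells alone. Herpud1, of the degradation of endoplasmic reticulum proteins, fell by 0.46 in RepB+/- cells. Of 20 heat shock response genes 19 were tested, and Hspb1, a small heat shock protein, alone was called, falling by 0.43 in RepB+/- and by 0.42 in RepB-/- cells. Of all genes 6.84% fell in RepB+/- and 5.49% in RepB-/- cells. The medians of the stress and heat shock lists were -0.04 and 0.04 in RepB+/- cells, and -0.03 and -0.05 in RepB-/- cells. Between RepB-/- and RepB+/- cells neither edgeR nor DESeq2 called a gene of these 4 lists, and 7 had an unadjusted edgeR p under 0.05.

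In MEF, RepB cells had less of 9 of the 10 genes than WT cells, and 7 of them were 2-fold or more below WT, where 6.4% of the 11672 genes measured (mean of at least 1 CPM) were so. None was 2-fold or more above, where 3.35% of all genes were. The median log2 ratio was -1.20 for the 10 genes and 0.03 for all genes. With 1 library a group there is no test and no check by replicates, and the intervals given are 95% Clopper-Pearson intervals of the ratio that cover counting error only.

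Egr1 had 36.3 CPM (708 reads) in RepB MEF, against 329 CPM (3812 reads) in WT MEF, and was 9.06-fold lower (ratio 0.110, interval 0.102 to 0.120). Of the 11672 genes, 165 had a lower ratio. Junb had 96.7 CPM in RepB MEF, against 268 CPM in WT MEF, and Jun had 94.6 CPM, against 228 CPM. Junb was 2.77-fold lower (ratio 0.361, interval 0.341 to 0.383) and Jun 2.41-fold lower (ratio 0.415, interval 0.391 to 0.441). Fos had 10.7 CPM in RepB MEF, against 25.6 CPM in WT MEF, and was 2.39-fold lower. Ier2 had 41.5 CPM, against 86.5 CPM, and was 2.08-fold lower, or within 2-fold (log2 -0.93) when scaled by total counts. Fosb, with 47 reads in RepB MEF and 50 in WT MEF, had a ratio of 0.559 (interval 0.367 to 0.849). Every AP-1 gene and Egr1 was therefore lower in the RepB library, by more than counting error.

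The stress genes split in MEF. Ddit3 was the single gene of the 10 that was higher, with 51.9 CPM (1012 reads) in RepB MEF, against 34.2 CPM (396 reads) in WT MEF (ratio 1.52, interval 1.35 to 1.71). Atf3 had 4.41 CPM (86 reads) in RepB MEF, against 7.51 CPM (87 reads) in WT MEF, a ratio of 0.588 (interval 0.431 to 0.801). Hspa1a had 16 reads in RepB MEF, against 148 in WT MEF, a ratio of 0.0643 (interval 0.0358 to 0.108). Hspa1b had 345 reads in RepB MEF, against 456 in WT MEF, a ratio of 0.450 (interval 0.390 to 0.518). Hspa1a made up 4.43% of the pair's reads in RepB MEF, 24.5% in WT MEF and 33.3% to 47.1% in the ES libraries. Summed, the pair had 361 reads in RepB MEF, against 604 in WT MEF, and was 2.81-fold lower (ratio 0.355, interval 0.311 to 0.405).

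Other immediate early genes were also low in RepB MEF, while few genes of the stress pathways were past 2-fold. Of 23 immediate early genes 8 lay 2-fold or more below WT and 0 above, where 6.4% and 3.35% of all genes did (median log2 ratio -0.82). Ctgf, a matrix-associated growth regulator, had 243 CPM in RepB MEF, against 597 CPM in WT MEF. Zfp36 had 22.0 CPM, against 50.8 CPM, and Nr4a1, an orphan nuclear receptor, 9.23 CPM, against 38.2 CPM. Egr2 and Egr3, relatives of Egr1 named here after their values were seen, had 26 and 71 reads in RepB MEF, against 251 and 354 in WT MEF. Of 17 measured genes of the serum and MAP kinase list 2 were below (Dusp6 and Dusp4, median -0.15), and of 23 integrated stress and unfolded protein genes none was past 2-fold either way (median 0.05). Of 19 heat shock genes Hsph1, a chaperone of the HSP110 family, was above with 305 CPM in RepB MEF, against 150 CPM in WT MEF. Hspb1 was below with 8 reads, against 357 (list median 0.07).

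The 2 MEF libraries also differed in fibroblast markers. Col1a1, the main collagen of fibroblasts, had 18103 CPM in RepB MEF, against 22403 CPM in WT MEF, and the 8 markers summed to 32429 CPM, against 38337 CPM. Thy1, a surface protein of many fibroblasts, was at 0 in RepB MEF, against 10.1 CPM in WT MEF, as was Lum, which had 0.431 CPM in WT MEF, and Dcn had 0.256 CPM, against 3.19 CPM. Pdgfra had 107 CPM, against 173 CPM. Col1a2 (10914 CPM, against 12079 CPM) and Col3a1 (3220 CPM, against 3590 CPM) differed less. Postn went the other way, with 85.5 CPM in RepB MEF, against 77.7 CPM in WT MEF. Pluripotent, heart muscle, endothelial and endoderm markers summed to under 2 CPM in either library, and macrophage markers to 10.4 CPM, against 19.8 CPM. The part of these differences in the low immediate early genes was not tested.

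**Figure D3:**
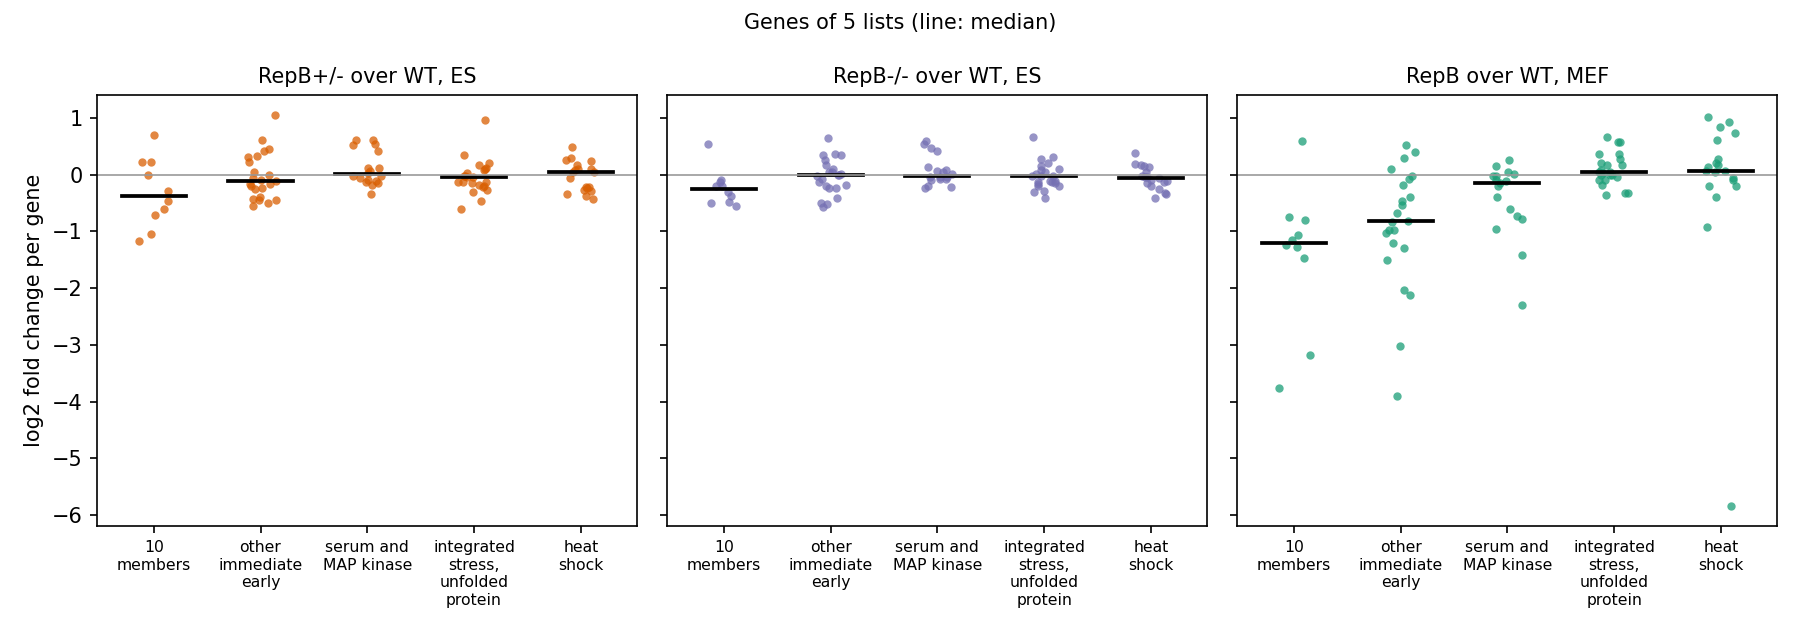
Log2 fold change (y axis) of each measured gene (points) of 5 lists (x axis), with the median of the list (line), for RepB+/- over WT ES cells, RepB-/- over WT ES cells and RepB over WT MEF. In MEF the medians of the 10 genes (-1.20) and of the other immediate early genes (-0.82) lie below 0, and those of the integrated stress (0.05) and heat shock (0.07) lists near it.

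Reads over strain variants were given by the authors to the 129 or the CAST allele. In the 6 ES libraries pooled, 7 of the 10 genes had nearly all or all of these reads from 129: 99.96% for Egr1, 99.9% for Jun, 99.7% each for Junb and Atf3, and 100.0% for Fos, Ddit3 and Hspa1b. This was also so for the genes around them, whose median 129 share within 5 Mb was 98.7% to 99.7%, except around Junb, where it was 89.8%. Differences in these 7 genes thus cannot be split by allele. The share of Ddit3 rested on 24 reads (lower limit 85.75%), with no allelic read in replicate 2 of WT or of RepB+/- cells. The share of Hspa1b, a near-identical copy of Hspa1a, was not read as that of an allele, as described below. Fosb had 42.4% (25 reads from 129 and 34 from CAST, interval 29.6% to 55.9%), with a median of 49.7% for its neighbours.

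Ier2 and Junb lie 316 kb apart on chromosome 8 but differed sharply. Ier2 had 33.3% of its reads from 129 in the pooled ES libraries (29.3% to 38.4% per library), against 99.7% for Junb (99.5% to 100.0%). The 10 genes with at least 60 pooled reads on the Ier2 side, as far as Nfix, had shares of 19.4% to 40.8%. From Gadd45gip1, 128 kb further, the 25 genes on the Junb side had a median of 99.1%, with Cks1brt at 15.9%, 4921524J17Rik at 70.5%, Prdx2 at 74.4% and Calr at 83.1% as the lowest. The border was placed after the shares had been seen. The same genotypes thus had 2 alleles of Ier2 in their RNA and 1 of Junb.

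**Figure D4:**
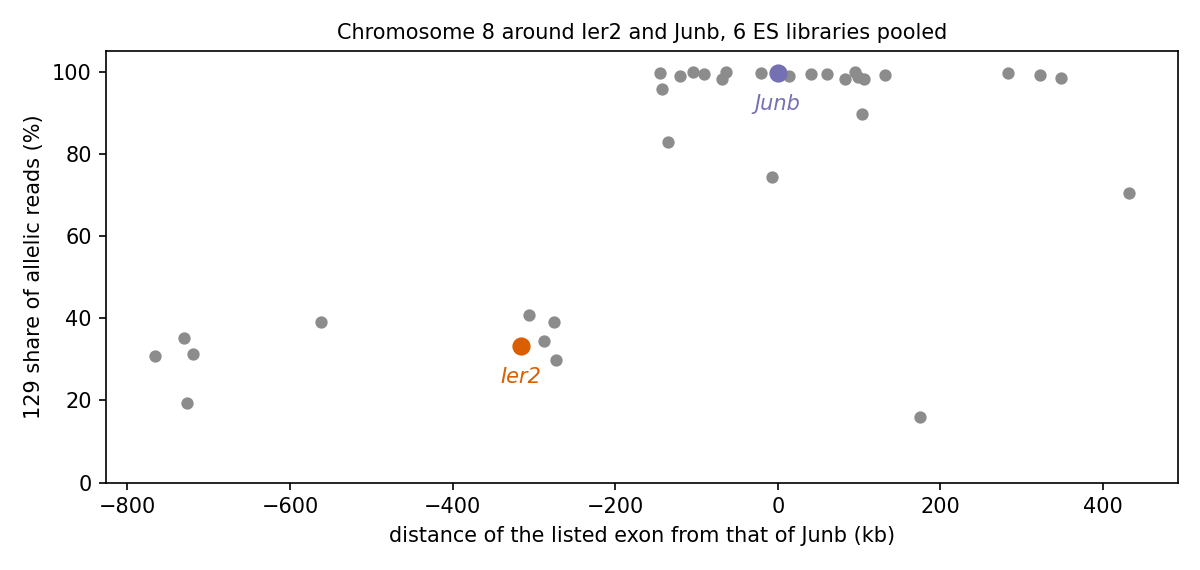
Share of allelic reads from 129 (y axis, %) of genes with at least 60 allelic reads in the 6 ES libraries pooled (points), by the distance of the listed exon from that of Junb (x axis, kb). Ier2 (33.3%) lies among genes with shares of up to 40.8%, and Junb (99.7%) among genes with nearly 129 reads alone.

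In MEF both alleles were read for 8 of the 10 genes, all but the HSP70 pair, though the 6 reads of Fosb in RepB MEF were all from 129. Ddit3 had only 8 allelic reads in RepB MEF and 2 in WT MEF. Egr1 had 45.2% from 129 in RepB MEF (interval 37.2% to 53.4%), against 50.5% in WT MEF (47.3% to 53.8%), so its difference was seen in both alleles, with 70 and 85 reads from 129 and CAST in RepB MEF, against 475 and 465 in WT MEF. Junb had 44.7% in RepB MEF, against 47.8% in WT MEF, and Ier2 43.3%, against 42.6%. Jun had 38.8% in RepB MEF (interval 31.5% to 46.6%), against 73.9% in WT MEF (67.8% to 79.3%). Its unscaled reads were 66 from 129 and 104 from CAST in RepB MEF, against 178 and 63 in WT MEF. The genes around Jun had medians of 34.0% in RepB MEF (15 genes) and 53.3% in WT MEF (11 genes). All genes of chromosome 4 had medians of 34.1% in RepB MEF and 57.0% in WT MEF. Jun thus differed in the direction of its whole chromosome, but its share in WT MEF lay above both WT medians. The part of the chromosome's shift in the lower Jun level was not tested. Chromosome 10, which holds Ddit3, had medians of 65.9% in RepB MEF and 50.8% in WT MEF, and chromosome 7, which holds Fosb, had 65.4% in RepB MEF and 46.1% in WT MEF.

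The HSP70 pair gave shares that departed from the medians around them, Hspa1a in ES cells and both genes in MEF. Hspa1a had 0 of its allelic reads from 129 in any ES library, with 72 from CAST in all (upper limit of the 129 share 4.99%), and Hspa1b had 113 from 129 and 0 from CAST (lower limit 96.8%). Their neighbours within 5 Mb had a median of 99.2% in ES cells. In MEF, where the neighbours had medians of 49.7% in RepB and 50.3% to 50.5% in WT, Hspa1b again had only 129 reads (18 in RepB MEF, 47 in WT MEF) and Hspa1a only CAST reads (1 in RepB MEF, 11 in WT MEF). The shares of these near-identical copies are given as counted and were not read as those of alleles.

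For each gene other than Egr1 the single gene with the most similar profile over the 6 ES libraries was sought among 11446 genes (11447 for Fosb) with a mean of at least 5 CPM, by the root mean square difference of the centred log2 CPM. This describes 6 libraries that share 3 genotypes. Ddit3 and Hspa1b were each other's nearest gene, at 0.09 (log2), where the median gene lay 0.47 from Ddit3 and 0.54 from Hspa1b. Jun was nearest to Triobp (0.03), Fos to Zfp574 (0.02), Atf3 to Pik3cb (0.03), Ier2 to Pde10a (0.04), Fosb to Fbxo44 (0.08) and Hspa1a to Des (0.09). Junb was nearest to Gapdh (0.03), a housekeeping gene with many near-identical copies in the genome, whose count is uncertain. It had 43.0 and 64.6 CPM in RepB+/-, 41.7 and 45.3 CPM in RepB-/- and 51.4 and 56.6 CPM in WT cells, so like Junb it was spread between the 2 RepB+/- libraries.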

How the data were processed

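RNA-seq was measured in 6 ES libraries and 2 MEF libraries. The other 42 samples of the series were not analysed here. The 3 deposited tables hold whole-number counts as the authors made them, not normalized, in 24 columns per gene: all reads, reads given to the 129 allele (headed mus) and to the CAST allele (headed cas), with positions on mm9. Tools named in the submitters' processing notes are TopHat, featureCounts, cutadapt, Novoalign, bedtools, SAMtools, Juicer and HOMER. Their versions, the strand setting and how multi-mapping reads were treated are not given in the sources used here. Counts of near-identical or overlapping genes are therefore uncertain. Depth sets the counting error, largest for Fosb and for Hspa1a in MEF.

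An edgeR model (version 4.0.16, R 4.3.3) took all 6 ES libraries, with genotype alone as a term, after filterByExpr with a minimum count of 10 and a minimum total of 15. Scaling was by TMM and the test was the quasi-likelihood F-test, also tested on simulated data. The common biological coefficient of variation was 9.49%. A call is an adjusted p under 0.05 (Benjamini-Hochberg, 15149 genes). A member's libraries overlap where their CPM ranges do. RPKM used counts and the tables' exon length. In MEF, log2 ratios of TMM-scaled CPM had a prior count of 2, with genes averaging at least 1 CPM and no test. Allelic shares have 95% Clopper-Pearson intervals, and neighbours needed at least 20 allelic reads. No molecular identifiers are stated, so intervals cover counting error only. Alternatives were DESeq2 1.42.0, its size factors, other filters, other sets of libraries, a replicate block and leaving out each library. Besides the 10 genes, the genes named are up to 3 of those called in a list, by lowest adjusted p, in MEF up to 3 past 2-fold with the most reads, and each gene's nearest profile (that of Egr1 is not reported here). The 10 genes, the lists and the tests were chosen with earlier results of these data known.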

Additional observations from a re-analysis of the deposited data

Results flagged for a closer look

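Egr1 had a log2 ratio of -3.17 in RepB MEF over WT MEF, while every RepB+/- and RepB-/- ES library lay above both WT ES libraries. Its level was 36.3 CPM in RepB MEF, against 329 CPM in WT MEF. The difference between the cell types was not tested, since MEF had 1 library a group.

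Ddit3 had a log2 ratio of 0.60 in RepB MEF over WT MEF, while every RepB+/- and RepB-/- ES library lay below both WT ES libraries. Its level was 51.9 CPM in RepB MEF, against 34.2 CPM in WT MEF. Chromosome 10, which holds Ddit3, had a median 129 share of 65.9% in RepB MEF and 50.8% in WT MEF. The part of that shift in the ratio of Ddit3 was not tested, nor was the difference between the cell types.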

How the results depend on the processing

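For single genes in ES cells, 333 values under the alternatives kept their side of the threshold, 20 lost a call, 10 gained one and none of those called reversed, while uncalled values of Egr1, Fosb, Jun, Junb and Ier2 changed sign in some. The count of the 10 genes that fell in RepB+/- over WT was 2 to 5 when each library was left out in turn. In RepB-/- over WT the count that rose was 0 to 1 and the count that fell 0 to 4. In RepB-/- over RepB+/- each count was 0 to 1 in these fits, and without a filter on low counts 2 genes rose. With the replicate number as a block, 5 genes fell in RepB-/- over WT and 1, Ddit3, rose in RepB-/- over RepB+/-. The numbers share no stated source: libraries of the same number deviated together with r of 0.108, 0.0696 and 0.186 across 15149 genes, with 2 pairs per comparison. Still, Egr1, Fosb, Jun, Junb and Ier2 were higher in replicate 2 than in replicate 1 of every ES genotype, as were the summed fibroblast markers. The rest of the 10 genes were not. Over all genes, the block gave 1675 that fell in RepB+/- over WT (1036 without it), 1667 that rose and 1493 that fell in RepB-/- over WT (1101 and 832), and 31 and 49 in RepB-/- over RepB+/- (3 and 10). In that last comparison DESeq2 gave 12 and 13, no filter 50 and 74, a mean of at least 5 CPM 1 and 7, and a fit of these genotypes alone 1 and 5. RepB+/- over WT (1382 and 1036) had 519 and 271 without WT replicate 2, 665 and 503 without WT replicate 1, and 942 and 641 without RepB+/- replicate 1. RepB-/- over WT had 440 and 247 without WT replicate 2, 542 and 448 without WT replicate 1, 605 and 387 without RepB-/- replicate 1, and 498 and 339 without its replicate 2. RepB-/- over RepB+/- had 16 and 50 without RepB+/- replicate 1 and 7 and 27 without its replicate 2. The cause was not tested. In MEF, 27 single values moved by less than counting error and 3 by more, all with total counts for scaling (Egr1 -3.04, Jun -1.14, Junb -1.34), which left 6 genes 2-fold or more below WT. A fit without 1 library assumes that the lone library varies like the other groups.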

Other observations

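Some genes of the lists other than the 10 members also had opposite signs in ES cells and MEF, and others had the same sign. Klf2 rose in both ES comparisons and had 11.1 CPM in RepB MEF, against 31.6 CPM in WT MEF. Dusp6 and Dusp4, feedback phosphatases of ERK signalling, rose in both ES comparisons and had 4.26 and 0.616 CPM in RepB MEF, against 11.6 and 3.54 CPM in WT MEF. Dusp4 rested on 12 reads in RepB MEF and 41 in WT MEF. Hspb1, Zfp36, Dusp1 and Myc fell in both ES comparisons and were also lower in RepB MEF than in WT MEF (log2 -5.84, -1.20, -0.98 and -0.82). The differences between the cell types were not tested.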
